A study of Mus musculus with 4 samples.

Results

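The cytosolic ribosomal protein genes were examined across 4 arrays of mouse effector T helper cells, 1 array each for Th1 CD30low, Th1 CD30high, Th17 CD30low and Th17 CD30high cells. Members were the genes whose annotated symbol is Rpl or Rps followed by a number, with at most 1 further letter of a, x, l, y or p, or is Rplp0, Rplp1, Rplp2 or Rpsa. This rule leaves out the Rps6k kinases and the pseudogenes, and it found 46 members among 18193 genes with a probe set of their own, 24 of the large subunit with its stalk and 22 of the small subunit. They were measured by 100 probe sets that list a single symbol. Each gene was represented by its brightest probe set, ranked by the mean of its 4 signals, and further probe sets were read as repeat measurements.

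Splenic CD4 T cells were cultured for 6 days, under Th1 conditions with IL-2 at 30 U/ml, IL-12 at 100 U/ml and an antibody to IL-4 at 1 µg/ml, or under Th17 conditions with IL-6, IL-1β and IL-23 at 10 ng/ml each and antibodies to IL-4 and IFN-γ at 10 µg/ml each. The cells were then sorted by surface CD30, a TNF receptor family member. The methods describe such cultures as started with ovalbumin peptide and irradiated splenocytes depleted of T cells, from mice with a transgenic T cell receptor. The labels name no gene deletion or transgene for these samples, and the strain and T cell receptor of the mice behind the arrays were not given in the sources used here, nor was the number of mice. The labels describe the starting cells of both CD30low samples as CD62Llow and those of both CD30high samples as CD62Lhi, whereas the methods describe CD62Lhigh naive cells for all cultures, so the starting cells and the CD30 sort cannot be told apart from the labels.

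A cytosolic ribosome is built of a small subunit, which decodes the mRNA, and a large subunit, which forms the peptide bond and carries a flexible stalk that recruits the translation factors. Its proteins are made in matched amounts, and their mRNAs, among the most abundant in a dividing cell, typically begin with a terminal oligopyrimidine tract (TOP), a C followed by a run of C and T at the 5′ end through which mTOR signaling controls their translation. Activated T cells enlarge and build ribosomes before they divide.

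The question put to each array pair was whether the members, as a group or singly, had a different signal by CD30 sort or by lineage. Each group had a single array, so the differences have no replicate check and no test, and the number of arrays limits the precision. A log2 ratio below 0 means a lower signal in the CD30high cells (CD30 comparisons) or in the Th17 cells (lineage comparisons). Signals under 100 were set to 100, ratios were read where the brighter array reached 300, and a member was counted as higher or lower at 1.5-fold. All 7 measured genes of the T cell marker list, Cd3d and Cd3e among them, were above 100 on every array. Their summed signal was 90325 and 77886 in Th1 and 64344 and 53273 in Th17 (CD30low first), and all 7 had a lineage ratio below 0, with medians of -0.43 and -0.47, and of -0.34 and -0.53 after quantile normalization. Tnfrsf8, which encodes CD30, had signals of 13.3 and 51.1 in the Th1 CD30low and CD30high cells and of 34.9 and 132.0 in the Th17 CD30low and CD30high cells. As 3 of these 4 signals are below 100, they give no check of the sort. The lineages differed in more than cytokines. Eif2s3y, a Y-linked gene, had signals of 1784 and 1640.0 in the Th1 CD30low and CD30high arrays and of 1.41 and 9.39 in the Th17 ones, and Xist, the RNA of the inactive X chromosome, had 14620.4 and 16222.5 in Th1 and 22350.0 and 22613 in Th17. Y-linked signal was thus seen on the Th1 arrays alone, while Xist was high on every array, so the Th1 arrays carried both. The contrast is therefore not simply one of male against female cells. The sex make-up of the samples, which bears on the X-linked members, cannot be told apart from lineage. Signals of the 6 myeloid markers summed to 251 and 384 in Th1 and to 7506.5 and 2100.5 in Th17 (CD30low first), and those of the 5 fibroblast markers to 190.1 and 245.0 against 1027 and 7746. The first were led by S100a8 and S100a9 and the second by Lum and Dcn, while the collagen genes Col1a1, Col1a2 and Col3a1 were under 100 on every array. The erythroid markers were under 100 throughout, and of the 4 B cell markers at most 2 passed 100 on an array. Of the 4 natural killer and CD8 cell markers, Klrd1 and Cd8b1 passed 100 on every array, and the sums were 6986 and 4954 in Th1 and 857 and 598 in Th17. The part of these differences in the lineage ratios below was not tested, and in sorted bulk samples a lower share of one kind of cell and less RNA per cell cannot be told apart.

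The TOP motif is shown first because it is a known feature of ribosomal protein mRNAs that the symbol rule did not use. RefSeq start sites were available for 40 members (build GRCm38.p6). A run of at least 5 bases, all C or T, was counted from a C within 5 bases of a listed start. The base before that C was not checked. A counted run can thus be the tail of a longer run that begins earlier, as in Rpl35 below, or with T, as in Rpl38 and Rplp2. Such a run was found in 19 of the 40 members (47.5%) and in 13 of 30 members of the bright class defined below (43.3%). It was found in 5718 of 27025 genes of the table (21.2%) and in 27 of 84 other genes whose mean signal reached 20000 (32.1%). Only the strand of the gene was searched, and a listed start can lie some bases from the one used by T cells, so a missing run says only that these letters are not in the window. Each line gives 30 bases, 15 on each side of the listed start, with the counted run in capitals. The first 6 members have a run and are followed by Rps27l and Rpl37, the bright members with the lowest signals.
Rpl38, large subunit, chr11:114668565-114668594, plus strand: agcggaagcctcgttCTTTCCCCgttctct
Rplp2, stalk, chr7:141447636-141447665, plus strand: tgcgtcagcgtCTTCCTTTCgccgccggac
Rpl35, large subunit, chr2:39005117-39005146, minus strand: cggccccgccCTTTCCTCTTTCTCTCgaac
Rps18, small subunit, chr17:33955651-33955680, minus strand: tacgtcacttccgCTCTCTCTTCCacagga
Rps10, small subunit, chr17:27635230-27635259, minus strand: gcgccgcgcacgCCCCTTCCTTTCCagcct
Rps6, small subunit, chr4:86857353-86857382, minus strand: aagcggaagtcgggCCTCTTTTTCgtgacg
Rps27l, small subunit paralog, chr9:66946071-66946100, plus strand: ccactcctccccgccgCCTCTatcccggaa
Rpl37, large subunit, chr15:5116598-5116627, plus strand: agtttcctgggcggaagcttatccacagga

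By signal the members fell into separate classes. In 35 members the mean signal over the 4 arrays was at least 5000, and these are called bright. The limit was set after the signals were seen, in the gap between Rps25 at 2326 and Rpl37 at 5974. The other 11, called dim, were Rpl12, Rpl14, Rpl27a, Rpl39, Rpl39l, Rpl3l, Rps16, Rps25, Rps27, Rps4l and Rps6. Of the 46, 42 reached 300 on at least 1 array, and Rpl39l, Rpl3l, Rps16 and Rps4l on none. A probe set's signal depends on its probes as well as on its mRNA, so the classes describe probe sets and do not order the genes by abundance. Rps6 and Rps27, core proteins of the small subunit, were dim here, and Rps16, also a core protein, was below 100 throughout.

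Signals are given in the order Th1 CD30low, Th1 CD30high, Th17 CD30low, Th17 CD30high. The brightest member was Rps29, a small zinc-binding protein of the small subunit, with 68511, 61932, 50044 and 48539. Rpl13a, a large subunit protein that also takes part in translational silencing in interferon-γ treated myeloid cells, followed with 63617, 57272, 45756 and 46174. Both were lower on the Th17 arrays than on either Th1 array. The stalk protein Rplp2 had 60689, 60135, 45041 and 46397. Rpl38, known for its effect on the translation of Hox mRNAs, had 63866, 58798, 42943 and 43374. Rps18 had 62312, 53445, 44186 and 44792. In all 5 of the brightest members both Th17 signals thus lay below both Th1 signals, as they did in 28.3% of all genes at 300. The highest signals of any probe set were also lower on the Th17 arrays, as described further on. Of the dimmest, Rps16 (9.64, 4.24, 0.824 and 1.91), Rps4l (10.8, 6.78, 4.23 and 9.69) and Rpl3l (8.17, 6.59, 20.8 and 5.36) were at background on every array. Rpl3l replaces Rpl3 in heart and skeletal muscle, and Rpl39l, known from the testis, had 63.4, 63.8, 80.3 and 109.9.

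**Figure D1:**
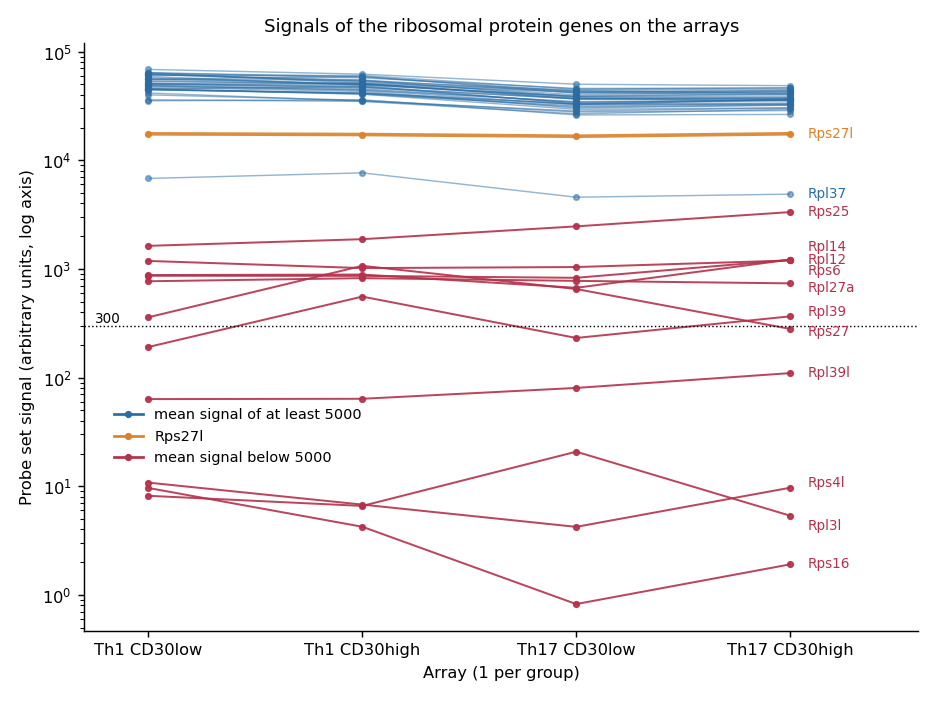
Signal of each of the 46 members (log axis, arbitrary units) on the 4 arrays, 1 line per gene, with bright members (mean signal of at least 5000) in blue, Rps27l in orange, the 11 dim members in red and a dotted line at 300. The band of bright members steps down from the Th1 to the Th17 arrays, Rps27l stays level, and the dim members cross each other.

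The largest median differences of the members were those between the lineages. Over the 35 bright members the median log2 ratio of Th17 over Th1 was -0.50 in CD30low cells (1.41-fold lower) and -0.34 in CD30high cells (1.27-fold lower), and the ratio was below 0 in 35 and in 34 of the 35. These values hold for the scaling of the deposited signals, since quantile normalization, described further on, gave medians of -0.02 and 0.02. Over all 46 members the medians were -0.46 and -0.32, while the median over all genes at 300 was 0.00 and 0.04. The ratios lay close together, and the SD across the 34 bright members other than Rps27l was 0.07 in CD30low and 0.10 in CD30high cells. Both Th17 signals lay below both Th1 signals in 34 of the 35 bright members, against 28.3% of all genes at 300. The exception was Rps27l.

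Few members passed 1.5-fold, the common difference being smaller than that. In CD30low cells 6 of 41 members at 300 were lower in Th17, against 13.3% of all genes (0 members after quantile normalization), and 2, the dim Rps25 and Rps27, were higher, against 11.7%. The 6 were Rps19, the protein most often mutated in Diamond-Blackfan anaemia, Rpl11, which with the 5S RNA can bind the p53 regulator MDM2, Rps10, Rpl10a, Rpl22, which is needed for normal αβ T cell development in mice, and Rpl7a. Rps19 had signals of 46765, 43009, 30269.6 and 32116, which is 1.54-fold lower in CD30low and 1.34-fold lower in CD30high Th17 cells. The 6 spanned only 1.52-fold to 1.54-fold, just past the limit, and the next bright members, Rpl37, Rpl38 and Rpl7, lay at 1.49-fold, 1.49-fold and 1.48-fold. In CD30high cells 3 of 42 members (Rpl37, Rpl39 and Rps27) were lower, against 14.9%, and Rps25 alone was higher, which is 1 of 42 against 13.6%. The share of lower members was thus near the background in CD30low cells and below it in CD30high cells. At a wider limit, a Th17 signal of at most 0.8 times the Th1 signal, 35 of 41 members were lower in CD30low cells, against 25.1% of all genes, and 21 of 42 in CD30high cells, against 25.3%.

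The difference was of like size in both subunits and in most of the short lists of members. The 18 bright large subunit members had medians of -0.48 and -0.35 (CD30low, then CD30high), and the 17 of the small subunit had -0.52 and -0.32. The stalk proteins Rplp0, with signals of 44463, 41648, 32873 and 33587, and Rplp2 had log2 ratios of -0.44 and -0.43 in CD30low and of -0.31 and -0.37 in CD30high cells. Rpl11 (45038, 40530.5, 29402 and 30383) and Rps7 (52819.8, 50834, 37819 and 37748), both able to bind MDM2, had -0.62 and -0.48 in CD30low and -0.42 and -0.43 in CD30high cells. The 9 measured genes of the Diamond-Blackfan list were below 0 in both lineage comparisons, with medians of -0.54 and -0.42. Of the 7 members known for a role outside general translation, 6 were below 0 in CD30low and 5 in CD30high cells, with ranges of -0.61 to 0.60 and of -0.45 to 0.83. Rps25 was above 0 in both and Rps6 in CD30high cells. The 13 bright members with a run near the listed start had medians of -0.50 and -0.34, and the 17 without had -0.54 and -0.34. A member without a run in the window can still have a TOP mRNA. This split therefore does not tell whether the motif bears on the ratio.

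Repeat probe sets that were also bright gave like ratios. In the 17 members with a second probe set that was also at 5000 or more on every array, both probe sets had the same sign in 17 of 17 genes in each lineage comparison, and the SD of a single probe set, from the differences within genes, was 0.06 in both. The corresponding SD over all 208 genes of that brightness was 0.16 in CD30low and 0.17 in CD30high cells. Of the 68 bright probe sets of members, 67 were below 0 in CD30low and 65 in CD30high cells. The 35 probe sets whose identifiers end in _x_at, which can pick up related sequences, had medians of -0.48 and -0.36, and the 6 with a plain _at ending had -0.54 and -0.32. Over the 25 members with any plain _at probe set, many of them dim, the medians were 0.00 and 0.00. This spread is within an array and does not stand in for the spread between cultures.

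**Figure D2:**
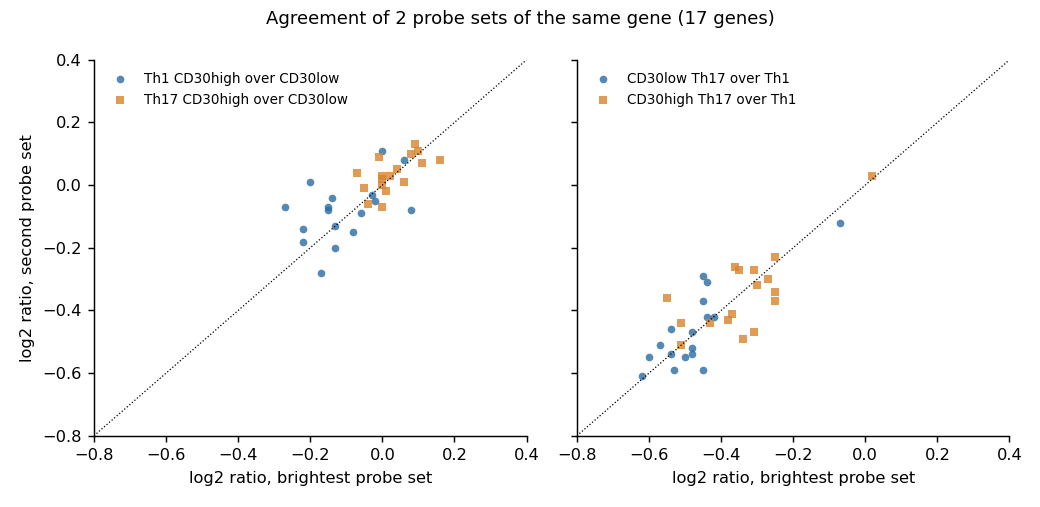
Log2 ratio from the brightest (x axis) and the second (y axis) probe set of 17 members with both at 5000 or more on every array, for the CD30 comparisons (left) and the lineage comparisons (right). The dotted line marks equal values. In the lineage panel 16 genes lie in the lower left and Rps27l lies near 0.

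Genes of other kinds with equally bright probe sets showed the same difference. Among the 27 other genes whose mean signal reached 30000, 24 were below 0 in CD30low and 26 in CD30high cells, with medians of -0.44 and -0.40, beside -0.50 and -0.34 for the 33 members at that signal. Of the 27, 6 are TOP genes or ribosomal components on the lists described below, and the other 21 had medians of -0.43 and -0.40 with 18 and 20 below 0. Actb, a cytoskeletal actin, had signals of 49414, 48233, 36333 and 34577 and log2 ratios of -0.44 and -0.48. Tmsb4x, an actin-binding peptide, had 68262, 65658, 50823 and 44947 and ratios of -0.43 and -0.55. Ldha, a glycolytic enzyme, was an exception at 30814, 31217, 31587.5 and 32927, with ratios of 0.04 and 0.08. The difference grew with signal: the median over other genes was 0.01 and 0.03 between 5000 and 10000, -0.06 and -0.02 between 10000 and 20000, and -0.24 and -0.18 between 20000 and 30000 (CD30low first). It was therefore not shown to be particular to the ribosomal protein genes, though these varied less, with an SD of 0.07 and 0.08 at 30000 or more against 0.24 and 0.56 for the others.

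The top of the scale differed between the arrays in the same way. The highest signal of any probe set was 68511, 65658, 50823 and 48590.1 in the order of arrays above, and the 99th percentile was 16208, 15799, 14873 and 14869.6, while the 98th percentile (8478, 8535, 8584 and 8445) and the mean trimmed by 2% at each end (496.8, 496.6, 497.0 and 497.0) hardly differed. On each array 34 of the 35 bright members lay above the 98th percentile. Their median rank among all genes hardly differed, at 26, 27, 27 and 27, and 33 members were among the 100 brightest genes on every array. Single ranks moved more, as for Rpl37 at 658, 531, 1029 and 967. The 46 members took 7.83%, 7.45%, 5.95% and 6.07% of the summed gene signal. When the 4 arrays were given a common distribution by quantile normalization, the bright members' medians became -0.02 and 0.02, with 19 and 11 of 35 below 0. That step equalizes the brightest signals by construction, and members hold many of them, so neither scaling tells whether the mRNAs or the upper ends of the array scales differed, and the cause was not tested.

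**Figure D3:**
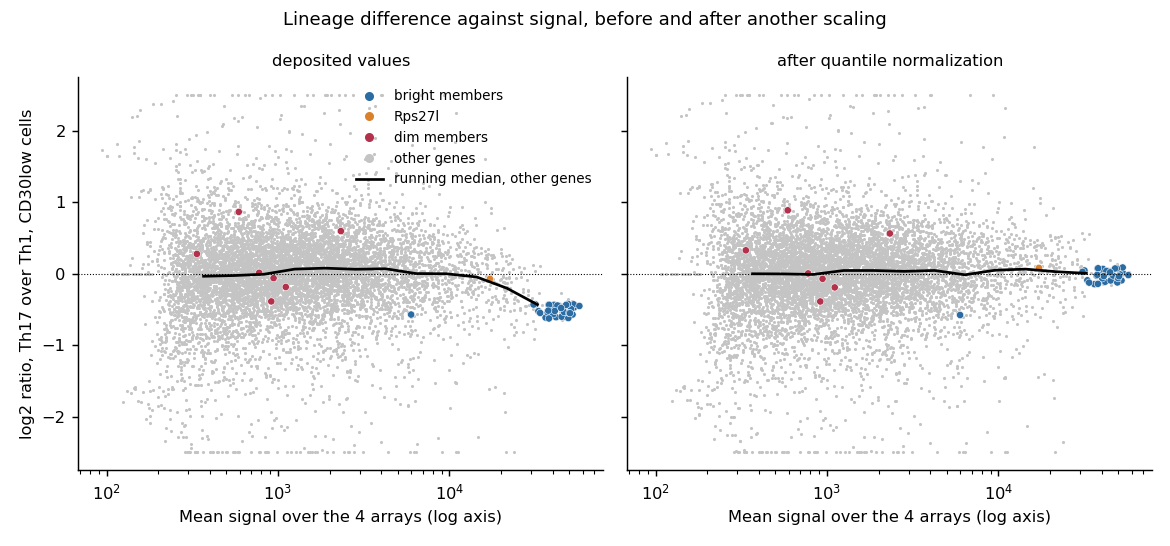
Log2 ratio of Th17 over Th1 in CD30low cells against the mean signal over the 4 arrays (log axis), for genes at 300 or more on some array, with deposited values on the left and quantile-normalized values on the right. Bright members are blue, Rps27l orange, dim members red and other genes grey (values beyond 2.5 are drawn at 2.5), and the line is the running median of the other genes. On the left the line bends down at the bright end, where the members lie around -0.50. On the right the bright members lie around 0 except Rpl37 at -0.58. The dim members there lie on both sides of 0, from Rpl12 at -0.39 to Rps27 at 0.89.

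Among the bright members Rps27l had the smallest lineage difference, and Rpl37 the lowest signal. Rps27l, a paralog of Rps27 that p53 can induce, had signals of 17494, 17241, 16631 and 17523, level across the 4 arrays, with lineage ratios of -0.07 and 0.02. Its other probe sets gave -0.12 and 0.03 (17075, 16515, 15709 and 16883) and 0.03 and 0.08 (13798, 14893.5, 14094 and 15789.5). All 3 probe sets of this gene were thus within 0.12 of no difference. Its signal was also below that of the other bright members except Rpl37, in the range where other genes had medians of -0.06 and -0.02.

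Rpl37, a zinc-binding large subunit protein with 1 probe set here, had signals of 6797, 7656, 4568 and 4876. The Th17 signals were lower than both Th1 signals, 1.49-fold in CD30low and 1.57-fold in CD30high cells, and other genes between 5000 and 10000 had medians of 0.01 and 0.03 with an SD of 0.71 in both comparisons, so that its ratios lay within the spread of those genes. Unlike the rest of the bright class it kept its ratios after quantile normalization, at -0.58 and -0.70 on the log2 scale. No second probe set was there to repeat it.

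The CD30 sort made little difference to the bright members. In Th1 cells their median log2 ratio of CD30high over CD30low was -0.12 (1.09-fold lower) with 31 of 35 below 0, and in Th17 cells it was 0.04 with 26 of 35 above 0. The SD of a single bright probe set was 0.07 and 0.04 in these comparisons. The medians over all genes at 300 were -0.03 and 0.01, with 53.9% and 48.8% below 0. The 27 other genes whose mean signal reached 30000 had medians of -0.08 and 0.01, with 21 and 13 below 0. The Th1 difference was thus largely shared by other genes of that signal. None of the 35 passed 1.5-fold in either direction. Across these 35 genes the ratios in Th1 and Th17 were unrelated, with a Pearson correlation of 0.05, a Spearman correlation of -0.03 and the same sign in 11, as a description across genes that share the arrays. After quantile normalization the medians were -0.02 and 0.00.

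The lowest ratio in Th1 was that of Rps4x, an X-linked small subunit gene, with 63756 in CD30low and 51266 in CD30high cells, a log2 ratio of -0.31, beside 43507 and 41132 in Th17 cells (log2 ratio -0.08). Rpl22 (log2 ratio -0.27), Rps3 (-0.25), which can also bind NF-κB, Rps10 and Rps18 (both -0.22) followed. For Rpl22 the signals were 59062 and 49104 in Th1 and 38879.8 and 41256 in Th17, but its second probe set had a Th1 ratio of -0.07. The highest bright ratio in Th17 was 0.16, for Rpl7, whose second probe set gave 0.08. Between the 2 brightest probe sets of a gene, both at 5000 or more, the widest difference was 0.21 in Th1 and 0.12 in Th17. Further bright probe sets differed by more, as for Rpl13a, where the first gave -0.15 and the fourth 0.21 in Th1, and the first 0.01 and the third 0.32 in Th17.

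**Figure D4:**
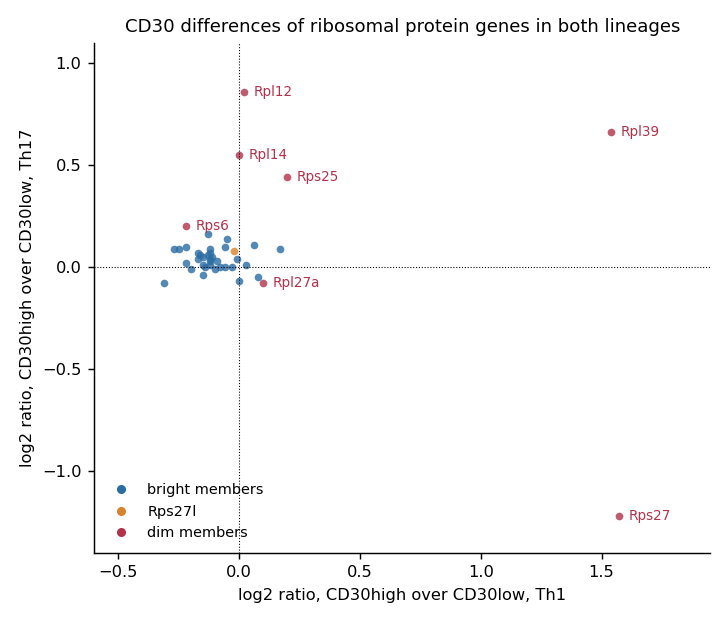
Log2 ratio of CD30high over CD30low in Th1 (x axis) and in Th17 cells (y axis) for the 42 members at 300 or more on some array, with bright members in blue, Rps27l in orange and dim members in red with their names. The bright members lie within 0.31 of 0 on both axes, and the members far from 0 are dim.

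Every member past 1.5-fold between CD30 sorts was dim. In Th1 cells 2 of 42 members were higher in CD30high cells, against 4.04% of all genes, and 0 were lower, against 3.57%. In Th17 cells 2 were higher, against 9.52%, and 1 was lower, against 9.12%. Rps27, which like Rps27l is a zinc-binding protein of the small subunit, had signals of 359, 1067.5, 653 and 280.5. It was 2.97-fold higher in CD30high than in CD30low Th1 cells but 2.33-fold lower in CD30high than in CD30low Th17 cells, and it had the lineage ratios farthest from 0, at 0.86 in CD30low and -1.93 in CD30high cells. Rpl39, an X-linked protein near the peptide exit tunnel, had 191, 556, 231.5 and 366, with CD30 ratios of 1.54 in Th1 and 0.66 in Th17. Rpl12, which lies at the base of the stalk, had 878, 887, 670.0 and 1218, a CD30 ratio of 0.02 in Th1 and 0.86 in Th17. These were single probe sets whose signals reached at most 1218.

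Rps25, whose loss lowers the use of several internal ribosome entry sites, ran against the bright members. Its signals were 1630.2, 1877, 2463 and 3332.5, higher in Th17 than in Th1 by 1.51-fold in CD30low and 1.78-fold in CD30high cells. Both Th17 arrays lay above both Th1 arrays. It has 1 probe set here, and quantile normalization left its ratios at 0.56 and 0.75 on the log2 scale. Rpl14 (865, 863, 828 and 1211) had a Th17 CD30 ratio of 0.55 and a CD30high lineage ratio of 0.49. Rps6, which S6 kinases phosphorylate downstream of mTOR, had 1184, 1017.5, 1040.2 and 1195.5, with all 4 ratios within 0.23 of 0. Rpl27a (769.6, 822, 776 and 736) had ratios within 0.16 of 0. As a class the 7 dim members at 300 had a larger spread of ratios, with an SD of 0.76 and 0.70 in the CD30 comparisons against 0.10 and 0.06 for the bright ones.

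Several second and further probe sets of bright genes that were themselves dim departed from the first probe set in some comparisons. The third probe set of Rpl37a had signals of 1135, 299.9, 1119.6 and 1531, a log2 ratio of -1.92 in Th1 and of 2.35 between the lineages in CD30high cells, while the first (51180 in Th1 CD30low, 36756 in Th17 CD30high cells) had -0.14 and -0.34. The fifth probe set of Rps24 (169.3, 145.2, 271.0 and 575) had a CD30high lineage ratio of 1.99, against -0.51 in its first 3 probe sets. The second of Rps3 (2756, 2439, 1223 and 2142) had a Th17 CD30 ratio of 0.81, against 0.09, and the second of Rps9 (1148, 1671, 873 and 889) a Th1 ratio of 0.54, against -0.16. By lineage these second probe sets were below 0 like the first, at -1.17 and -0.19 for Rps3 and at -0.40 and -0.91 for Rps9. Among bright probe sets the widest gap was in the third of Rpl7, at -0.53 in Th1 against -0.13 in the first. In each of these 5 genes the large ratio came from 1 probe set. Rpl41 differed, as both of its dim probe sets (mean signals of 985.8 and 873.5) departed from its bright probe sets in the same direction. Their CD30high lineage ratios were 0.31 and 0.27, against -0.51 and -0.44 in the bright probe sets. Their Th17 CD30 ratios were 0.78 and 0.41, against -0.07 and 0.04. In the CD30low lineage comparison they gave -0.24 and 0.04, against -0.45 and -0.37.

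Genes that work with the ribosomal proteins were read from lists for comparison. Of 8 ribosomal components whose symbols fall outside the rule, 4 had a probe set of their own, and 2 of these were lower past 1.5-fold in CD30low Th17 cells, where 13.3% of all genes were. Fau (50262, 46679, 32513 and 33768) and Rps3a1 (54538, 51005, 40246 and 38333) had lineage ratios of -0.63 and -0.47, and of -0.44 and -0.41. Rpl22l1, a paralog of Rpl22, had 19623, 19080.3, 12104 and 14236, with lineage ratios of -0.70 and -0.42. These ratios were as low as those of the brightest members, at a signal in the range of Rps27l. Other genes between 10000 and 20000 had medians of -0.06 and -0.02 with an SD of 0.61 and 0.66. The ratios of Rpl22l1 thus lay within the spread of those genes. The fourth, Rpl7l1, ran the other way, with 1503.5, 1506, 1705 and 1993 and lineage ratios of 0.18 and 0.40. The 15 measured other TOP genes, mostly elongation and initiation factors, had medians of -0.06 and 0.11 by CD30 sort (Th1, then Th17) and of -0.44 and -0.23 by lineage. Only 1 of the 15 passed 1.5-fold in any comparison. This was Tpt1 (57456, 50013, 36708 and 38227), a growth-related protein, at -0.65 in the CD30low lineage comparison, where 13.3% of all genes were lower past 1.5-fold. Eef1a1, the main elongation factor, had 59408, 56953, 40624.5 and 40967, with lineage ratios of -0.55 and -0.48. By lineage 13 of the 15 were below 0 in CD30low and 12 in CD30high cells. Hnrnpa1, at 6054, 6763, 7426 and 8270.1, had the highest ratios, with 0.29 in both, and Eif3l (0.00 and 0.14) and Eif3k (-0.53 and 0.10), subunits of initiation factor eIF3, were also above 0 in CD30high cells. After quantile normalization the lineage medians of this list were -0.14 and -0.03.

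Nucleolar genes of ribosome biogenesis had other medians, at signals that were mostly below 10000, where other genes also had lineage medians near 0. The brightest of them, Ncl (23973, 23393, 18287 and 21108), had lineage ratios of -0.39 and -0.15. The 23 genes had medians of 0.01 and 0.35 by CD30 sort (Th1, then Th17) and of 0.05 and 0.30 by lineage (CD30low, then CD30high). In CD30high over CD30low Th17 cells 20 of 23 were above 0 and in the CD30high lineage comparison 19 of 23. Past 1.5-fold, 2 of 23 were higher in each of these, against 9.52% and 13.6% of all genes, and 2 were higher and 2 lower in the CD30low lineage comparison, against 11.7% and 13.3%. Nop58, a core protein of box C/D snoRNPs, had signals of 2976, 3622, 5154 and 6132, with lineage ratios of 0.79 and 0.76. Polr1a, the largest subunit of RNA polymerase I, had 500.1, 514, 294 and 486, with a Th17 CD30 ratio of 0.72. Gar1, of the H/ACA snoRNPs, had 2646, 2920.5, 2782 and 4182, with a Th17 CD30 ratio of 0.59. Quantile normalization left the 4 medians at 0.02, 0.36, 0.04 and 0.32, so the sign held in each. The 75 mitochondrial ribosomal proteins at 300 had medians of -0.04, 0.08, 0.04 and 0.21 in the same order, with 9 of 75 higher and 1 lower past 1.5-fold in the CD30high lineage comparison, against 13.6% and 14.9% of all genes. The 2 comparisons with the larger medians share the Th17 CD30high array.

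Of 14 genes that control the translation of TOP mRNAs, 11 were at 300. Pdcd4, an inhibitor of the helicase eIF4A that S6 kinase marks for degradation, had signals of 8760.5, 6153, 3706 and 2205, the lowest ratios of the list in all 4 comparisons at -0.51, -0.75, -1.24 and -1.48 (Th1 and Th17 by CD30 sort, then CD30low and CD30high by lineage). Eif4ebp1, a repressor of cap-dependent translation that mTOR switches off, had 3145, 3682, 2855.5 and 5778, with a CD30 ratio of 0.23 in Th1 and 1.02 in Th17. Eif4ebp2, its relative, had 2999, 2756, 1863 and 1661, with lineage ratios of -0.69 and -0.73. Eif4e, the cap-binding protein both restrain, had 2639.5, 3509.6, 3959 and 5088, with lineage ratios of 0.58 and 0.54. Larp1, which binds TOP mRNAs, had 2729, 3312, 3106 and 3238, with lineage ratios of 0.19 and -0.03. By lineage, Larp4 (1075, 1382, 1722 and 2137) was higher at 0.68 and 0.63. Past 1.5-fold, 2 of 11 genes were higher and 3 lower in the CD30low lineage comparison, against 11.7% and 13.3% of all genes. In the CD30high lineage comparison 2 were higher and 2 lower, against 13.6% and 14.9%. By CD30 sort 1 was higher and 2 lower in Th17, against 9.52% and 9.12%, and none passed in Th1, against 4.04% and 3.57%. The list had no common direction, with 5 of 11 above 0 in CD30low and 4 of 11 in CD30high cells.

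**Figure D5:**
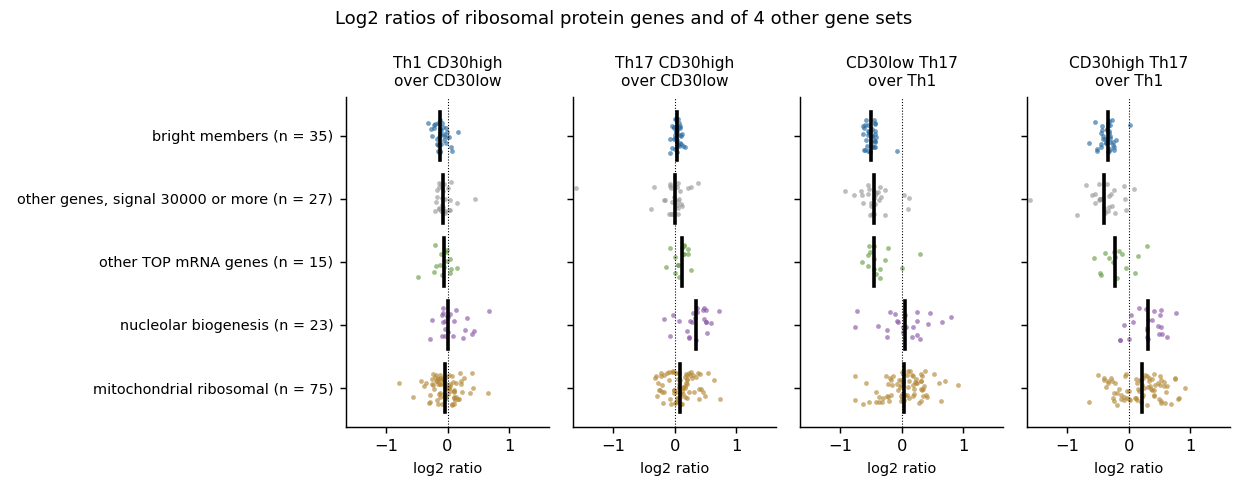
Log2 ratios in the 4 comparisons (panels) for the 35 bright members, 27 other genes whose mean signal reached 30000, 15 other TOP genes, 23 nucleolar biogenesis genes and 75 mitochondrial ribosomal protein genes. Points are genes, black bars are medians, and values beyond 1.6 are drawn at 1.6. In the lineage panels most genes of the first 3 sets lie left of 0 and the nucleolar and mitochondrial genes lie around or right of it.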

How the data were processed

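Total RNA of the 4 samples had been labelled with a 3′ IVT kit and hybridised to Affymetrix mouse genome expression arrays. The deposited values are linear signal intensity values, 1 per probe set and array, summarised and scaled by the authors; the methods name GeneChip Operating Software, the submitters' processing notes Affymetrix Expression Console, and the version, algorithm and scaling target were not given in the sources used here. Of 45037 probe sets, 34945 list 1 gene symbol in the platform annotation (34741 matched a current reference table), 932 list several and 9160 none; only those with 1 symbol were named.

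From these intensities log2 ratios between arrays were computed with Python 3.11.15, numpy 2.4.6 and pandas 2.3.3, after signals below 100 were set to 100, and figures were drawn with matplotlib 3.10.9. With 1 array per group no test was run. The technical spread is the SD per probe set from the differences between the 2 brightest probe sets of a gene. Scripts were tested on simulated data with 200 changed genes. Genes named in the text were mostly drawn from the following groups, and not every gene of a group is named. Per comparison these were the members with the 5 highest and 5 lowest ratios at 300 or more, and every member past 1.5-fold. Further groups were the 5 brightest and 5 dimmest members and the short member lists. Genes of each comparison list and members whose probe sets disagree in direction were also drawn on. Larp1, Eef1a1 and the bright genes of other kinds were chosen after their values were seen. The members and lists were chosen with earlier results of these data known. Start site sequences came from RefSeq (GRCm38.p6). Alternatives were another scaling, floor, signal limit, fold limit and choice of probe set.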

Additional observations from a re-analysis of the deposited data

Results flagged for a closer look

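Rps27 had opposite CD30 differences in the lineages: its log2 ratio of CD30high over CD30low was 1.57 in Th1 and -1.22 in Th17 cells, a difference of -2.79. Its lineage ratio was -1.93 in CD30high and 0.86 in CD30low cells, which is the same difference of -2.79 since all 4 arrays enter both. This was not tested, since each group has 1 array. Its single probe set read between 280.5 and 1067.5 on the 4 arrays.

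Rpl12 had opposite lineage differences in the sorts, with a log2 ratio of Th17 over Th1 of -0.39 in CD30low and 0.46 in CD30high cells, a difference of 0.85. This difference was not tested either, and its single probe set read between 670.0 and 1218.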

How the results depend on the processing

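No paired analysis was possible because each group has 1 array. Of 100 alternatives tried, 63 left a value within the spread of a member probe set (or a count within 1.5 times), 35 moved it and 2 reversed it. Medians are given for Th1 and Th17 by CD30 sort, then CD30low and CD30high by lineage. As reported they were -0.10, 0.04, -0.46 and -0.32. Quantile normalization gave 0.00, 0.00, 0.00 and 0.02, the last a reversal, and for bright members alone -0.02, 0.00, -0.02 and 0.02, again with the last reversed. Relative to the median of the 101 other genes at 20000 or more, bright members were at -0.03 in Th1 by CD30 sort and at -0.14 and -0.09 by lineage. This reference is dimmer than most bright members, as 74 of the 101 lay between 20000 and 30000, with lineage medians of -0.24 and -0.18. At 30000 or more the 27 other genes had lineage medians of -0.44 and -0.40, and the 33 members -0.50 and -0.34. Plain _at probe sets only (25 members) gave 0.00, 0.13, 0.00 and 0.00, many of them dim. The 23 members with the lowest mean signals, bright ones among them, gave 0.00 in Th1 and -0.39 and -0.24 by lineage. The 11 dim members alone had lineage medians of 0.00 and 0.00. The settings with bright members alone were chosen after the data were seen.

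Counts at 1.5-fold moved as follows. With a signal limit of 1000, members higher by CD30 sort went from 2 to 1 in Th1 and from 2 to 1 in Th17, lower in Th17 from 1 to 0, and higher in the CD30low lineage comparison from 2 to 1. Quantile normalization changed the CD30low lineage counts from 2 to 1 higher and from 6 to 0 lower. The mean of all probe sets gave 1 lower in Th1. Plain _at probe sets gave 4 higher in Th17 by CD30 sort, 2 lower in CD30low and 2 higher in CD30high lineage comparisons. A fold limit of 2 gave 0 higher in Th17 by CD30 sort, 0 higher and 0 lower in CD30low, and 0 higher and 1 lower in CD30high lineage comparisons. A wider limit (a ratio of at most 0.8, or its inverse) gave 4 higher in Th17 by CD30 sort, 35 lower in CD30low, and 3 higher and 21 lower in CD30high lineage comparisons. The 1 array per group limits every value, and the cause of these changes was not tested.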

Other observations

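Further probe sets list a member symbol among several and were not named. There were 110, of which 81 had a mean signal of at least 5000. By lineage all 81 were below 0 in both CD30low and CD30high cells, with medians of -0.51 and -0.36 and ranges of -0.73 to -0.35 and -1.19 to -0.15. By CD30 sort 76 of the 81 were below 0 in Th1 and 10 in Th17, with medians of -0.10 and 0.05. These are close to the medians of the probe sets with a single symbol.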
